A study of Mus musculus with 74 samples.

Results

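Pdx1, Ptf1a, Prss2, Cpa1, Cpb1, Cela1 and Try4 are 7 genes of the pancreas, out of 24015 gene symbols in the deposited RNA-seq count table of mouse gut epithelium. They were chosen by their measured levels in the embryonic hindstomach, so those levels are given as a description without a test. All 7 were followed in the 31 RNA libraries, which form 15 groups. Pdx1 and Ptf1a are transcription factors. Prss2, Cpa1, Cpb1, Cela1 and Try4 encode secreted digestive enzymes.

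The pancreas buds from the foregut between stomach and duodenum. Pdx1 marks the pancreatic buds together with the antral stomach and the duodenum, and is needed for the pancreas to grow beyond a bud. Ptf1a is the sequence-specific subunit of the PTF1 complex, which is needed for the acinar lineage and binds the promoters of acinar enzyme genes. Acinar cells secrete trypsins (Prss2, Try4), carboxypeptidases (Cpa1, Cpb1) and elastases (Cela1), and Cpa1 is also an early marker of multipotent pancreatic progenitors.

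The wild-type embryonic epithelium came from CD1 mice: forestomach, hindstomach and small intestine at E12, E14 and E16, and small intestine at E18, with 2 libraries per group. The label of the E12 and E14 small intestine names the midgut. Deletion of Cdx2, a transcription factor that specifies intestinal epithelium, was studied on a B6;129 mixed background. The genotype Cdx2f/f; Shh-Cre was collected at E16 (3 libraries, deletion labelled as E10). The genotype Cdx2f/f; Villin-Cre was collected at E16 after 5 mg tamoxifen by gavage (2 libraries, deletion labelled as E13) and at E18 (2 libraries, deletion labelled as E15). Adult ileum, from B6;129 mice, was taken 3 days after 5 daily injections: Cdx2f/f; Villin-Cre with 1 mg tamoxifen each day, and Cdx2f/f controls with sunflower oil (2 libraries each). In the embryonic deletion comparisons genotype and strain differ together and cannot be told apart, nor can tamoxifen, which the labels give only for the deleted groups at E13 and E15, and in the adult one the Cre allele and tamoxifen come together. Cells up to E16 were digested with trypsin and sorted for Epcam, whereas villi were stripped with EDTA at E18 and in adults. Nothing in the labels says whether replicates came from separate litters, so p-values measure the spread between these libraries only.

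Several libraries stood apart from their labels. The 2 libraries labelled E12 hindstomach held the posterior gut gene Hoxd13 at 29.6 and 32.3 CPM (counts scaled to a common library size). They also held Hoxa10, another posterior gut gene, at 104 and 120 CPM, Cdx2 at 116 and 160 and Gata4 at 0.369 and 0.569. E12 small intestine held Cdx2 at 153 and 115 CPM and Gata4 at 195 and 145. The other 25 embryonic libraries held Hoxd13 at 0.0352 CPM or less; these genes were picked after their values were seen. The libraries labelled E12 forestomach held Gata4 at 277 and 273 CPM and Nkx6-3, a factor of the antral stomach, at 40.7 and 47.9. Cdx2 was at 196 and 218 CPM in the E16 wild type and at 17.4, 14.5 and 27.5 in the E10 deletion. It was not lower in the libraries labelled E13 deletion (213 and 217), E15 deletion (388 and 371, against 200 and 206 at E18) or adult deletion (472 and 462, against 242 and 248). The exons that the deletion removes are not in the labels, so counts over the whole gene may not read it. Genes of the gastric list (mucins, gastrokines and parietal and chief cell products) were called higher in each of these comparisons: 12 of 13 tested in the E10 and in the E13 deletion, 7 of 13 in the E15 deletion and 6 of 6 in the adult deletion. Over all genes 51.5%, 39.5%, 17.5% and 20.4% were called in either direction. Over genes, the libraries labelled E13 deletion correlated with E16 small intestine at a Spearman rho of 0.839 to 0.841, with E18 at 0.932 to 0.933 and with adult ileum at 0.917 to 0.924. Total counts ran from 5970227 to 62463167 per library.

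Levels below are CPM after TMM scaling, a correction for library composition. The adult libraries were scaled on their own, so adult levels are set beside embryonic ones only roughly. A library with 3 counts or fewer was treated as at the floor, which is 0.459 to 0.463 CPM in E16 forestomach and 0.0408 to 0.371 CPM elsewhere. These are bulk libraries, in which fewer cells of a type and less RNA per cell cannot be told apart. Reads from near-identical trypsin genes (Prss1, Prss2, Prss3, Try4, Try5, Try10) could have been split among them by the counting, so the level of each single trypsin is uncertain.

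Ptf1a was higher in the hindstomach than in its neighbours at E14 and at E16. At E14 it measured 13.2 and 11.9 CPM in hindstomach, 1.45 and 1.63 in forestomach and 2.5 and 2.33 in small intestine. At E16 it measured 9.81 and 15.9 CPM in hindstomach, 0.617 and 2.45 in forestomach and 1.81 and 1.69 in small intestine. Neither stage showed an overlap between hindstomach and the other organs. At E12 the order differed, with 12.1 and 28.9 CPM in small intestine, 11.5 and 5.49 in libraries labelled forestomach and 0 and 0.0598 in those labelled hindstomach. Ptf1a was at 0 counts in all E18 and adult libraries, deleted or not.

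Pdx1 was also high outside the hindstomach. At E12 it measured 33.6 and 41.0 CPM in small intestine, 27.5 and 24.6 in libraries labelled forestomach and 0.461 and 0 in those labelled hindstomach. At E14 the hindstomach held 32.6 and 31.4 CPM, the small intestine 17.1 and 14.2 and the forestomach 1.67 and 3.69. At E16 the hindstomach held 7.54 and 9.27 CPM, the small intestine 4.23 and 6.0 and the forestomach 0 and 0. The hindstomach libraries were the highest of the 3 organs at both later stages, while their own level was lower at E16 than at E14. Ordered by group mean over all 15 groups, the E13 deletion came first (122 CPM), followed by E12 small intestine (37.3), E14 hindstomach (32.0) and the E10 deletion (30.7). The E10-deletion range of 25.7 to 37.8 CPM overlapped the libraries of E12 small intestine and of E14 hindstomach, whereas those of E12 small intestine lay above those of E14 hindstomach.

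Cpa1 in hindstomach was at 491 and 505 CPM at E14 and at 442 and 520 at E16, so its level at these stages overlapped. In small intestine Cpa1 measured 231 and 224 CPM at E12, 160 and 143 at E14 and 135 and 105 at E16. In forestomach it measured 69.4 and 65.2 CPM at E14 and 20.4 and 13.9 at E16, and in the libraries labelled E12 forestomach 79.9 and 75.9. Hindstomach was highest at E14 and E16 without overlap. In the libraries labelled E12 hindstomach, and in every E18 and adult library, Cpa1 was at 0 counts.

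The other 4 enzymes were higher in hindstomach at E16 than at E14. Prss2, a trypsinogen, measured 5.72 and 6.62 CPM in E14 hindstomach and 41.5 and 52.1 at E16. Cpb1, which cleaves basic residues from protein ends, measured 0.247 and 0.301 CPM at E14 and 70.7 and 90.7 at E16. Cela1, an elastase, measured 36.4 and 36.4 CPM at E14 and 132 and 156 at E16. Try4, a trypsin gene of the same cluster as Prss2, had 0 and 1 counts at E14 and 4.66 and 6.83 CPM at E16. For these 4 enzymes all E16 hindstomach libraries lay above the E14 ones, whereas those of Cpa1 and Ptf1a overlapped across the stages. Cela1 was the only one of the 7 with counts above the floor in all 31 libraries, with its highest group mean in E16 hindstomach.

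**Figure D1:**
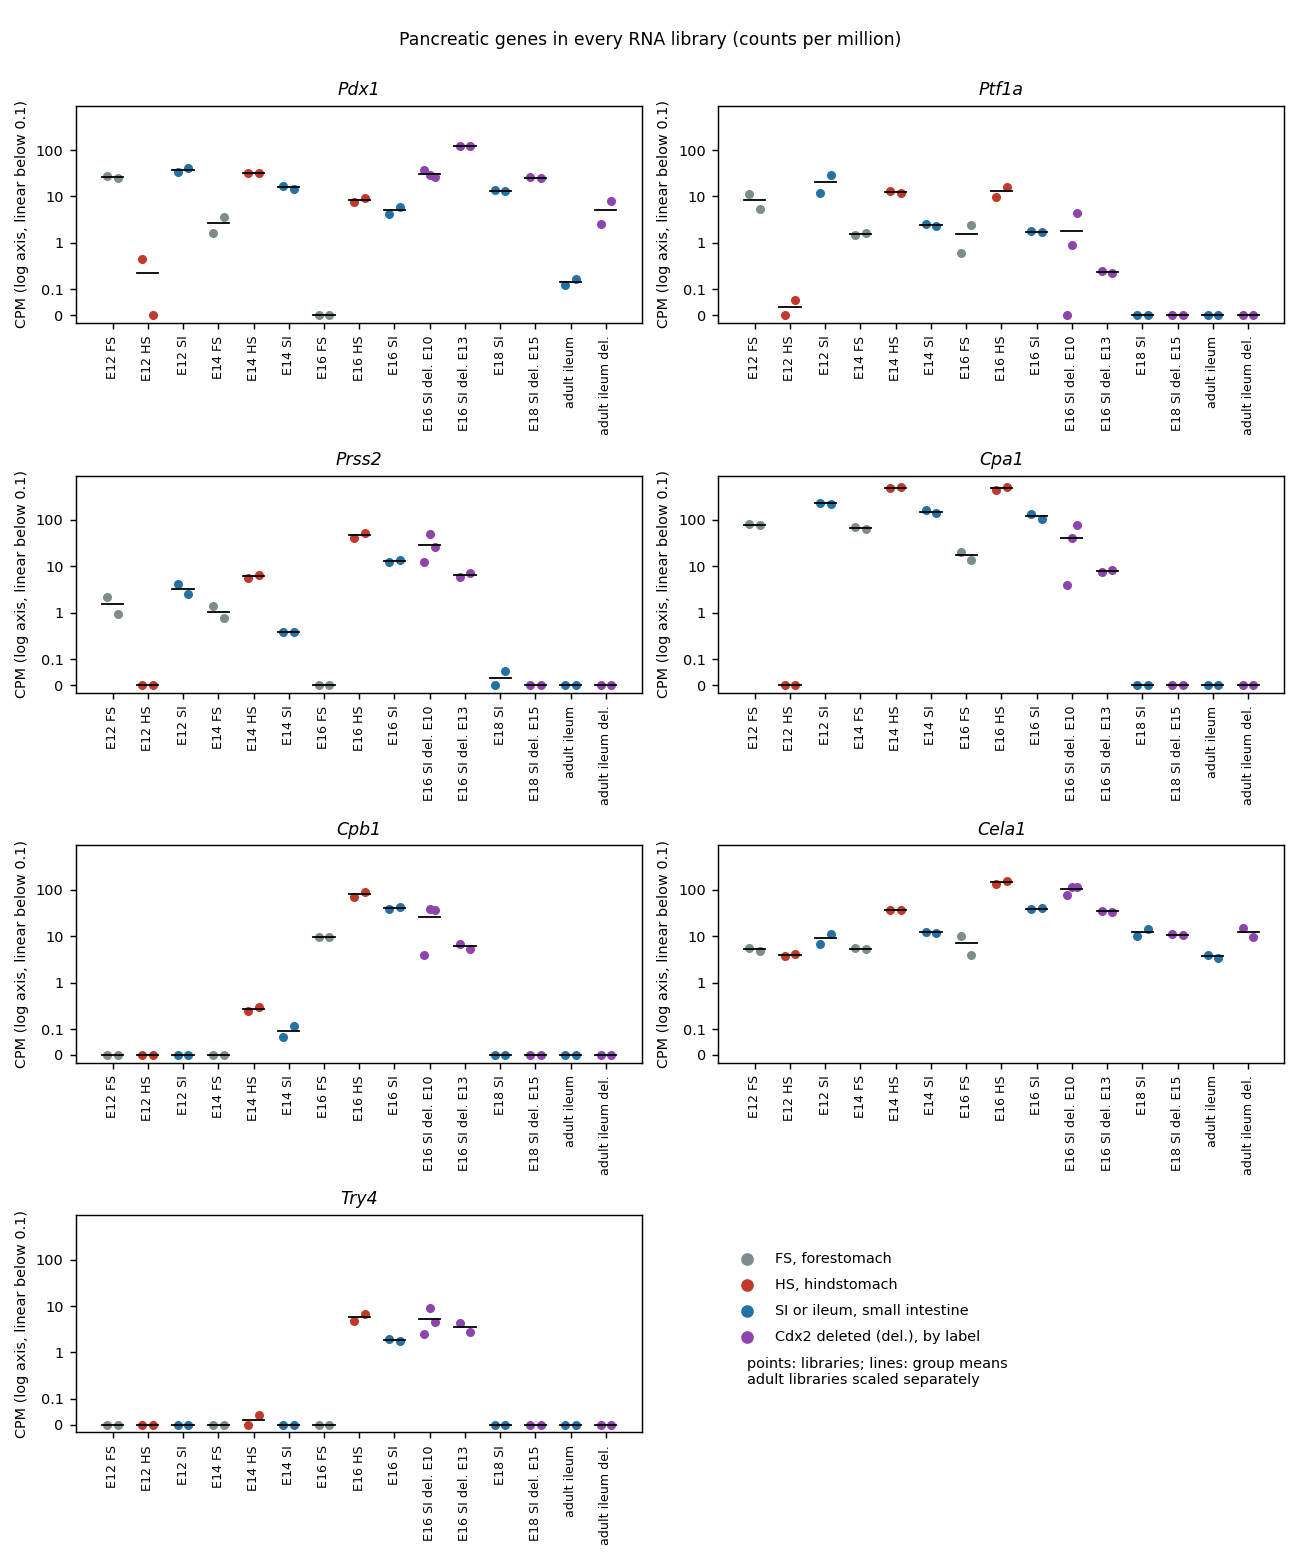
CPM (vertical, log axis, linear below 0.1) of each of the 7 genes in the 31 libraries (points), by organ, stage and labelled deletion, with group means as lines. Enzyme genes peak in hindstomach at E14 or E16, 6 of the 7 are at or near 0 in the libraries labelled E12 hindstomach, and Pdx1 is highest in the E13 deletion at 121 and 123 CPM.

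Levels outside the hindstomach were also set against it. At E16 the 5 enzymes of the set stood in small intestine at 25.0% (Cpa1) to 50.7% (Cpb1) of their hindstomach mean, with a median of 28.0%. In forestomach they stood at 0 to 11.7%, with a median of 3.57%. Pdx1, at 60.9% in small intestine, and Ptf1a, at 13.6%, lay above and below all 5 enzymes of the set. The plot of these percentages draws other enzymes only where hindstomach held 5 CPM or more, a choice that favours low percentages elsewhere and leaves out Pnliprp2 at E14 (3.71 CPM in hindstomach, 9.19 in small intestine).

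**Figure D2:**
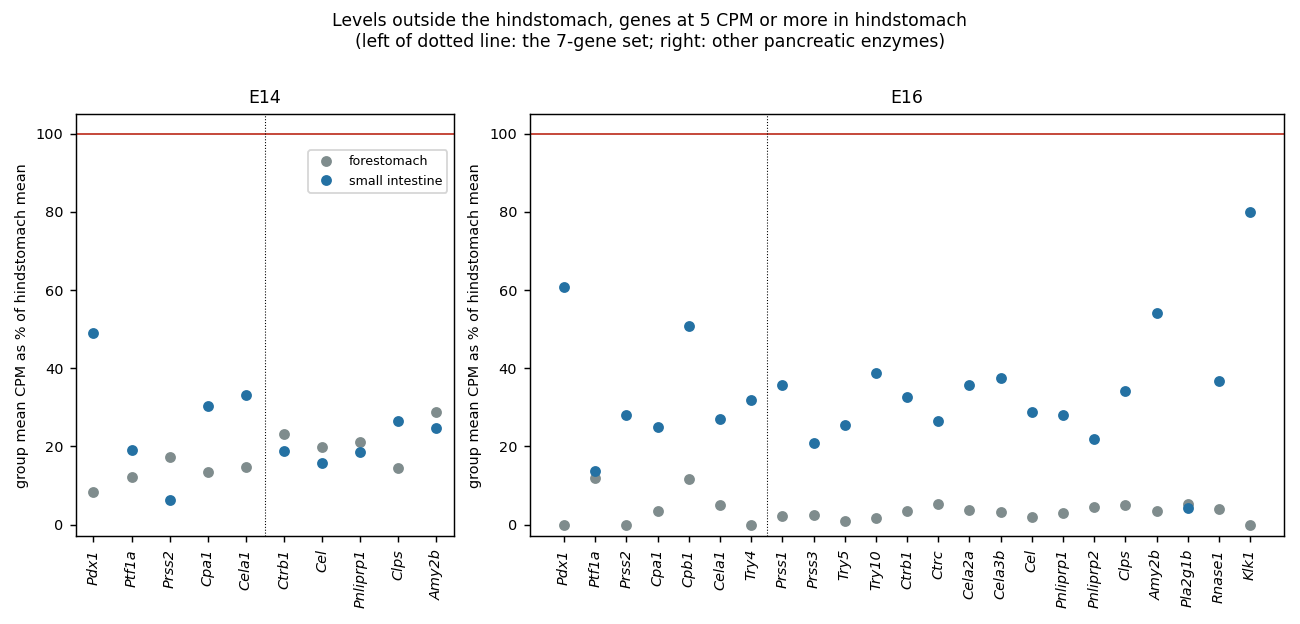
Group mean CPM in forestomach (grey) and small intestine (blue) as a percentage of the hindstomach mean (red line, 100%), for the 7-gene set and other named pancreatic enzymes at 5 CPM or more in hindstomach, at E14 (left) and E16 (right). At E16 the enzymes lie at 11.7% or less in forestomach, and in small intestine Pla2g1b (4.16%) is lowest and Klk1 (79.9%) highest.

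The other genes of the pancreas were tested with edgeR's quasi-likelihood test and Benjamini-Hochberg adjustment over 17239 genes, and a gene was called at an adjusted p under 0.05 and at least a 2-fold difference. The list of other digestive enzymes holds 23 genes in the table, of which 19 could be tested. At E16, 16 of the 19 were called higher in hindstomach than in forestomach, where 13.8% of all genes were called higher, and the list's median log2 difference was 4.82 against 0.13 over all genes. Pnliprp1, a pancreatic lipase-related protein, averaged 2610 against 75.0 CPM (log2 difference 5.12, SE 1.16, adjusted p = 0.0021). Ctrb1, a chymotrypsinogen, averaged 1030 against 36.5 CPM (4.82, SE 1.13, adjusted p = 0.00305) and Clps, the cofactor of pancreatic lipase, 853 against 43.4 CPM (4.30, SE 0.45, adjusted p = 5.7e-07). The trypsins Try5 (24.4 against 0.232 CPM) and Try10 (30.4 against 0.538 CPM) were also higher, and Klk1, a kallikrein, was at least 70.4-fold higher against the floor of 3 counts per library. With another scaling (RLE) the median of all genes moved by -0.15, and the genes called went from 2383 higher and 1081 lower to 1862 higher and 1436 lower. The E16 forestomach libraries also differed in other cell types: 9 mesenchyme and muscle genes summed to 19145 to 24003 CPM against 6900 to 7189 in hindstomach, 12 blood, immune and endothelial genes to 14092 to 19175 against 1154 to 1625, and 4 epithelial genes to 717 to 761 against 4763 to 4960. Most of the blood sum was Alas2, a heme synthesis gene of red cells (13298 and 18234 against 985 and 1397 CPM). Of this list 3 of 8 tested were called lower in hindstomach, while the leukocyte gene Ptprc measured 19.3 and 10.6 CPM in forestomach and 32.9 and 33.6 in hindstomach. The neural genes summed to 47.0 to 65.6 CPM in forestomach and 661 to 662 in hindstomach (4 of 5 called higher). Their part in the difference was not tested.

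At E14, 4 of the 19 enzymes were called higher in hindstomach than in forestomach, against 5.62% of all genes. Clps averaged 144 against 20.8 CPM (log2 difference 2.79, SE 0.42, adjusted p = 9.8e-05) and Pnliprp2, a lipase-related protein, 3.71 against 0.995 CPM (1.93, SE 0.45, adjusted p = 0.00612). The list's median log2 difference was 2.33 (1.80 with genes at 0 in 1 organ set to their bound), against 0.03 over all genes. At this stage the mesenchyme and muscle genes summed to 126 to 128 CPM in forestomach and 120 to 129 in hindstomach, and the blood, immune and endothelial genes to 3.8 to 4.41 and 3.65 to 3.77. The hepatocyte genes summed to 35.7 to 39.1 CPM in forestomach and 348 to 349 in hindstomach (3 of 12 called higher) and the neural genes to 6.76 to 6.9 and 28.3 to 28.5 (2 of 5 called higher). Most of the hepatocyte sum was 1 gene, Ambp (26.2 and 24.9 CPM in forestomach, 299 and 293 in hindstomach). Alb was at 0.212 and 0.451 CPM in hindstomach. The part of these lists in the difference was not tested.

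Against the small intestine fewer enzymes passed the test. At E16, 3 of 19 were called higher in hindstomach, where 17.5% of all genes were called higher: Pla2g1b, a phospholipase (14.8 against 0.617 CPM), Pnliprp2 (24.0 against 5.27 CPM) and Clps (853 against 291 CPM). Pnliprp1 averaged 2610 against 732 CPM (log2 difference 1.83, SE 1.00, adjusted p = 0.155) and Ctrb1 1030 against 336 CPM (1.62, SE 0.97, adjusted p = 0.199). The list's median log2 difference was 1.62, against 0.18 over all genes. At E14, 3 of 19 were higher, including Ctrc and Clps, against 3.49% of all genes, and Pnliprp2 was lower (3.71 against 9.19 CPM). These SEs rest on a spread estimated over all 27 embryonic libraries, including the E10-deletion replicates, which differed widely in enzyme levels. At E16 the mesenchyme and muscle genes were also higher in hindstomach than in small intestine in 8 of 9 (6900 to 7189 against 1388 to 1511 CPM) and the neural genes in 5 of 5 (661 to 662 against 55.1 to 63.7 CPM). The blood, immune and endothelial genes were higher in 3 of 8 (1154 to 1625 against 236 to 237 CPM). The hepatocyte genes were lower in 4 of 12 and higher in 1 (187 to 189 against 348 to 399 CPM). Their part in the result was not tested.

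From E14 to E16 in hindstomach 16 of the 19 enzymes were called higher, where 16.5% of all genes were called higher. Rnase1, pancreatic ribonuclease, went from 0.106 to 173 CPM, Cela3b, an elastase, from 0.511 to 153 CPM and Klk1 from 0.0917 to 32.5 CPM. Pnliprp1 (337 to 2610 CPM) and Ctrb1 (130 to 1030 CPM) started higher. The early pancreatic factors went the other way, with 10 of 13 called lower, against 5.50% of all genes: Nkx6-1, which marks progenitors and later beta cells, fell from 33.9 to 3.92 CPM, Nkx2-2 from 39.5 to 5.05 and Onecut1 from 14.3 to 0.796. Of 17 endocrine genes, 6 were called lower, among them Neurog3, the factor that starts endocrine differentiation (89.9 to 6.46 CPM, log2 difference -3.80, SE 0.58, adjusted p = 7.3e-05). The summed level of mesenchyme and muscle genes went from 120 to 129 CPM at E14 to 6900 to 7189 at E16, that of blood, immune and endothelial genes from 3.65 to 3.77 to 1154 to 1625, and that of 5 neural genes from 28.3 to 28.5 to 661 to 662. Their part in these differences was not tested. RLE scaling moved the median of all genes by 0.13 in this comparison.

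Endocrine and progenitor genes were compared in the same way at E14. Against forestomach, 7 of 17 endocrine genes and 7 of 13 progenitor factors were called higher, where 5.62% of all genes were higher, and 1 progenitor factor, Mnx1, was called lower (13.4 against 50.6 CPM). Gcg, glucagon, averaged 182 against 13.1 CPM and Iapp, the islet peptide amylin, 23.8 against 1.07. Against small intestine, 3 of 17 and 5 of 13 were higher, where 3.49% of all genes were higher, including Neurog3 (89.9 against 16.5 CPM), Isl1 (44.1 against 3.05 CPM) and Nkx6-2 (48.6 against 2.8 CPM). Beside this, the mesenchyme and muscle genes summed to 120 to 129 CPM in hindstomach and 326 to 359 in small intestine (4 of 9 called lower in hindstomach), and the blood, immune and endothelial genes to 3.65 to 3.77 and 12.5 to 14.6 (3 of 8 lower). The hepatocyte genes summed to 348 to 349 and 537 to 598 CPM (3 of 12 lower). Of these sums Ambp held 299 and 293 CPM in hindstomach and 278 and 242 in small intestine. The part of these lists was not tested. Insulin differed between the E16 hindstomach replicates: Ins1 was at 12.5 and 0 CPM and Ins2 at 53.0 and 5.7. Many endocrine genes are also used by the hormone cells of stomach and intestine.

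Among accessory acinar genes, Rbpjl, the PTF1 subunit of mature acinar cells, averaged 30.1 CPM in E16 hindstomach against 0.383 in forestomach (log2 difference 6.27, SE 1.55, adjusted p = 0.00404), and 7 of 11 genes of this list were called higher (6 with RLE scaling), against 13.8% of all genes. Against small intestine 1 of 11 was higher, against 17.5% of all genes, and 2 were lower. Bhlha15, which shapes the secretory apparatus, averaged 57.2 CPM against 8.44 in small intestine (2.76, SE 0.79, adjusted p = 0.0103). Spink3 (19.4 against 241 CPM) and Zg16 (10.2 against 97.5 CPM) were lower in hindstomach than in small intestine. These and Reg1 (3283 and 3253 CPM at E18) are also products of the intestinal epithelium. Of 12 hepatocyte markers, which summed to 187 to 189 CPM in E16 hindstomach, Trf (140 and 144 CPM) and Ambp (38.6 and 35.5) held most, Alb was at 0.666 and 0.913, and 3 to 5 were at 0.

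In the libraries labelled E12 hindstomach, 2 of 19 enzymes were lower, including Clps, and 2 higher than in those labelled forestomach, where 2.83% of all genes were lower, and 3 of 19 were lower than in small intestine, against 3.67% of all genes. From these libraries to E14 hindstomach 8 of 19 enzymes were called higher and 1 lower, where 10.8% of all genes were higher. All 3 comparisons rest on the libraries that held Hoxd13.

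Ptf1a and Cpa1 moved together over the 27 embryonic libraries (Pearson r = 0.911 of log2 CPM), as did Cela1 with Try4 (0.869), Cpb1 with Try4 (0.862) and Prss2 with Cela1 (0.811). Ptf1a correlated with the other enzymes at 0.064 (Try4) to 0.545 (Prss2), and Pdx1 with the 5 enzymes at -0.039 to 0.501. The libraries share organ, stage and depth, so these values describe the pattern only. The genes most like the mean of the 5 enzymes were Try5 (r = 0.939), Ctrc (0.892), Cela2a (0.880), 2210010C04Rik (0.871), Pdia2, a protein disulfide isomerase of the pancreas (0.861), Clps (0.855), Try10 (0.855) and Cela3b (0.841). The genes most like Pdx1 held no gene of the pancreas lists: 2210019I11Rik (r = 0.893), Noxa1 (0.871), Frat1 (0.853), Gata5 (0.835), Gsta3 (0.832), Sult1d1 (0.828), Akr1c12 (0.826) and Pla2g2d (0.814).

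PTF1 binds a pair of motifs, an E-box (CANNTG) and a TC-box (TTTCCC), so the 250 bases before the start of each of the 7 genes were read from the RefSeq promoter table (GRCm38.p6, all 7 matched by symbol) and searched on both strands. Cpa1 and Cela1 held both motifs with 2 to 30 bases between them. They are shown because they are the 2 of the 7 promoters with the pair. Capitals mark the closest pair of motifs, and each stretch is written in the direction of its gene. The Cela1 stretch also holds a further E-box match, catttg, left in lower case.
Cpa1 (chr6:30639155-30639217, plus strand): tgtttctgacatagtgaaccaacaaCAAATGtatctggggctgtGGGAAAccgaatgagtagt
Cela1 (chr15:100687989-100688054, minus strand): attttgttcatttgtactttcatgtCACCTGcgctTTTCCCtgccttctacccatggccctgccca
In Cpa1 the pair lies 38 to 14 bases upstream with 13 bases between the motifs, and the TC-box is on the other strand. In Cela1 it lies 109 to 94 bases upstream with 4 bases between them. The pair was found in 2 of the 7 promoters, in 5 of 20 promoters of the other enzymes (25.0%) and in 1656 of all 32851 promoters (5.04%). CANNTG alone was in 6 of 7 and in 66.2% of all, TTTCCC in 3 of 7 (Prss2, Cpa1 and Cela1, though in Prss2 not within this distance of an E-box) and in 21.9% of all, and the homeodomain core TAATTA in 1 of 7 (Cpa1) and in 4.84% of all. A match is letters only, not a shown site.

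The 7 genes were tested in the small intestine through time and in the Cdx2 deletions, which hold none of the hindstomach levels they were chosen by. The choice was made with earlier results of these data known, so these tests may not be independent of it. All 7 passed the filter on low counts in the embryonic fit.

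Between E12 and E14 small intestine, 3 of the 7 genes were called, all lower, against 16.2% of all genes in either direction. Pdx1 went from 33.6 and 41.0 CPM to 17.1 and 14.2 (log2 difference -1.25, SE 0.41, edgeR adjusted p = 0.0289). Ptf1a went from 12.1 and 28.9 CPM to 2.5 and 2.33 (-3.08, SE 1.04, adjusted p = 0.0343). Prss2 went from 4.13 and 2.49 CPM to 0.381 and 0.394 (-3.08, SE 0.61, adjusted p = 0.00142). The libraries did not overlap for any of these. Cpa1 (-0.59, SE 0.63, adjusted p = 0.515) and Cela1 (0.43, SE 0.28, adjusted p = 0.261) did not pass, and Cpb1 and Try4 had 5 counts or fewer in each library. The Pdx1 and Ptf1a calls are lost without either E14 library, Ptf1a also without the second E12 library (adjusted p = 0.0745), and all 3 when only these groups are fitted. The hepatocyte genes went from 940 to 1004 CPM to 537 to 598 (4 of 12 lower) and the mesenchyme and muscle genes from 258 to 269 CPM to 326 to 359 (4 of 9 higher, 1 lower). Of the hepatocyte sum Ambp held 601 and 638 CPM at E12 and 278 and 242 at E14. The blood, immune and endothelial genes went from 13.5 to 34.7 CPM to 12.5 to 14.6 (2 of 8 higher, 2 lower), and the part of these lists in the result was not tested.

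Between E14 and E16 small intestine 5 of the 7 were called, against 25.6% of all genes. Pdx1 fell further, to 4.23 and 6.0 CPM (log2 difference -1.62, SE 0.43, adjusted p = 0.00616), a call that is lost without the first E16 library (adjusted p = 0.0723). Prss2 rose from 0.381 and 0.394 to 12.3 and 13.9 CPM (5.06, SE 0.64, adjusted p = 1.3e-05). Cpb1 rose from 0.068 and 0.118 to 39.0 and 42.8 CPM (8.85, SE 1.04, adjusted p = 1.9e-05), and Cela1 from 12.5 and 11.6 to 38.2 and 39.9 CPM (1.70, SE 0.28, adjusted p = 0.000101). Try4 rose from 0 counts to 1.91 and 1.75 CPM, at least 23.0-fold against a floor of 3 counts per library. Ptf1a (-0.46, SE 1.00, adjusted p = 0.748) and Cpa1 (-0.33, SE 0.63, adjusted p = 0.71) did not pass. Of the other enzymes 14 of 19 rose with them and 1, Pla2g1b, fell, and Cela2a went from 0.0197 to 109 CPM. Of 13 progenitor factors 9 fell, with Foxa2 going from 20.7 to 1.87 CPM and Nkx6-1 from 8.81 CPM to 0 counts, at least 55.9-fold lower. RLE scaling moved the median of all genes by 0.11 here. The mesenchyme and muscle genes went from 326 to 359 CPM to 1388 to 1511 (6 of 9 higher) and the blood, immune and endothelial genes from 12.5 to 14.6 CPM to 236 to 237 (6 of 8 tested higher). Their part in the result was not tested.

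Between E16 and E18 all 7 genes were called, 6 lower and Pdx1 higher, against 42.1% of all genes. Cpa1 went from 135 and 105 CPM to 0, at least 584-fold lower against 3 counts per library, and Cpb1 from 39.0 and 42.8 CPM to 0, at least 199-fold lower. Ptf1a was at least 8.5-fold lower and Try4 at least 8.88-fold lower on the same measure. Prss2 had 245 and 254 counts at E16 and 0 and 1 at E18, a ratio of 397 (exact 95% interval 70.9 to 15708, covering counting error only). Cela1 remained detected, falling from 38.2 and 39.9 to 10.2 and 14.5 CPM (log2 difference -1.65, SE 0.29, adjusted p = 7.5e-05). Pdx1 rose from 4.23 and 6.0 to 13.5 and 13.1 CPM (1.38, SE 0.44, adjusted p = 0.0124), a call lost without the first E16 library (adjusted p = 0.106). Of the other enzymes 15 of 19 fell, with Clps going from 291 to 12.1 CPM. Klk1 did not pass (mean 25.9 CPM at E16 and 42.8 at E18, adjusted p = 0.168). Rbpjl fell from 6.66 to 0.0274 CPM with them, whereas Reg1 rose from 17.2 to 3268 CPM and Zg16 from 97.5 to 1597. Stage and preparation (Epcam sort at E16, EDTA villi at E18) cannot be told apart here, and the mesenchyme and muscle genes went from 1388 to 1511 CPM to 33.9 to 34.8. The neural genes went from 55.1 to 63.7 CPM to 9.11 to 9.78 (4 of 5 lower). The hepatocyte genes went from 348 to 399 CPM to 71.9 to 72.6 (5 of 12 lower). Of the blood, immune and endothelial genes 5 of 8 were lower and 1 higher. The part of these lists in the result was not tested.

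**Figure D3:**
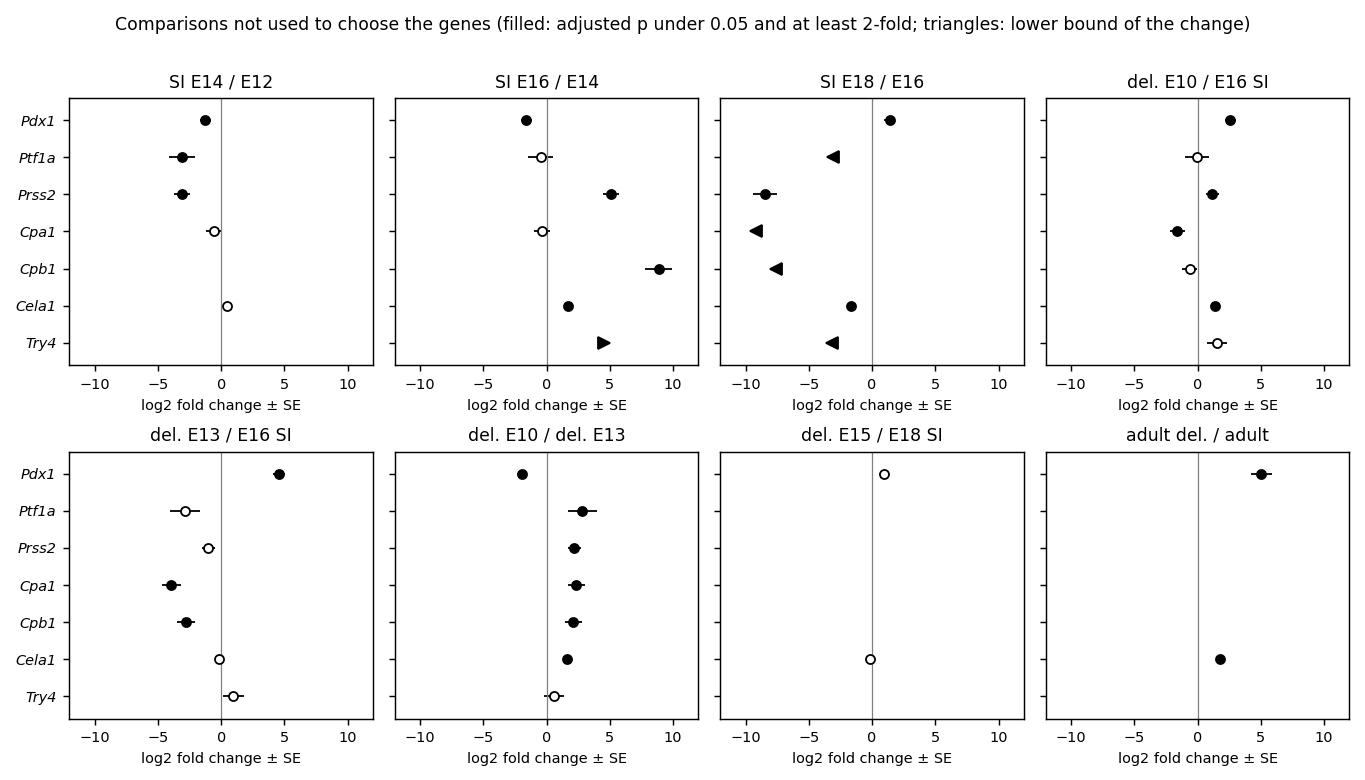
Log2 fold change (horizontal, bars are SE) of each gene in the 8 comparisons without hindstomach libraries. Filled symbols passed the edgeR call, and triangles mark the lower bound where a group was at 0 counts. Genes at the floor in both groups or not tested are left out. Pdx1 lies to the right in the E10, E13 and adult deletions, 4 of the 5 enzymes (not Cpa1) rise from E14 to E16, and 6 of the 7 genes lie to the left from E16 to E18.

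After deletion of Cdx2 from E10, Pdx1 and Cela1 were higher and Cpa1 was lower in small intestine. Relative to E16 wild-type small intestine 4 of the 7 were called, 3 higher and 1 lower, against 51.5% of all genes, so the share is near the background. Pdx1 measured 37.8, 28.6 and 25.7 CPM after deletion and 4.23 and 6.0 in the wild type (log2 difference 2.59, SE 0.43, edgeR adjusted p = 3.4e-05). Cela1 measured 78.8, 116 and 113 CPM against 38.2 and 39.9 (1.39, SE 0.26, adjusted p = 0.000124). For both, every deletion library lay above every wild-type library. Cpa1 was lower, at 4.01, 40.7 and 77.1 CPM against 135 and 105 (-1.60, SE 0.58, adjusted p = 0.0253). Prss2 measured 12.7, 49.7 and 26.1 CPM against 12.3 and 13.9 (1.17, SE 0.49, adjusted p = 0.049), with overlapping groups. Cpb1 at 3.87, 38.6 and 36.9 CPM (against 39.0 and 42.8), Try4 at 2.54, 8.98 and 4.45 (against 1.91 and 1.75) and Ptf1a at 0, 0.923 and 4.45 (against 1.81 and 1.69) did not pass, with adjusted p of 0.379, 0.112 and 0.984.

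The first E10-deletion library stood apart in acinar enzymes. It was the lowest of the 3 for 16 of the 19 other enzymes tested, at a median over the 19 of 3.96% of the mean of the remaining pair. The exceptions were Ctrl, a chymotrypsin-like protease (4.61, 7.72 and 1.85 CPM), Pnlip, pancreatic lipase (5.48, 8.98 and 0.124), and Pnliprp2 (3.61, 4.53 and 2.22). Pnliprp1 measured 0.668, 330 and 454 CPM, Ctrb1 2.2, 368 and 443 and Cela3b 0, 66.4 and 45.1. Within the set it held 6.81% of the pair's mean for Cpa1, 10.3% for Cpb1, 68.7% for Cela1 and 139% for Pdx1. Without this library the log2 difference of Cpa1 was -1.04 (adjusted p = 0.000946) and that of Ptf1a turned to 0.58 (adjusted p = 0.51), and the calls of Pdx1 (2.41) and Cela1 (1.56) held. The Prss2 call is lost without any of the other 4 libraries of the comparison (adjusted p up to 0.243), with no filter on low counts (0.0536) and in the fit without the groups labelled E12 hindstomach and E13 deletion (0.0555), and the Cpa1 call without the second deletion library (0.0741) or the first wild-type library (0.113), with DESeq2 (0.0774) and when only these groups are fitted (0.12). Of the other enzymes 2 of 19 were called higher (Pnlip and Pla2g1b) and 3 lower, including Amy2b and Cel, against 51.5% of all genes in either direction. Without the first deletion library these counts were 4 and 1. The list's median log2 difference was 0.13 against -0.10 over all genes. Among 13 progenitor factors 5 were higher, such as Foxa2 (1.87 to 27.8 CPM) and Nkx6-2 (0.424 to 28.0 CPM), and 4 lower, such as Gata4 (223 to 52.6 CPM). Of 17 endocrine genes 2 were higher and 7 lower, such as Neurog3 (9.16 to 1.94 CPM), a share near that of all genes, and without the first deletion library 3 and 5. The mesenchyme and muscle genes were lower in 8 of 9 (1388 to 1511 CPM in the wild type, 149 to 200 after deletion), and the 4 epithelial genes summed to 6167 to 6465 and 8461 to 15213 CPM. The blood, immune and endothelial genes summed to 236 to 237 and 10.1 to 24.5 CPM (5 of 8 lower, 1 higher). The neural genes summed to 55.1 to 63.7 and 1.27 to 10.6 CPM (4 of 5 lower). Their part in the differences was not tested.

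**Figure D4:**
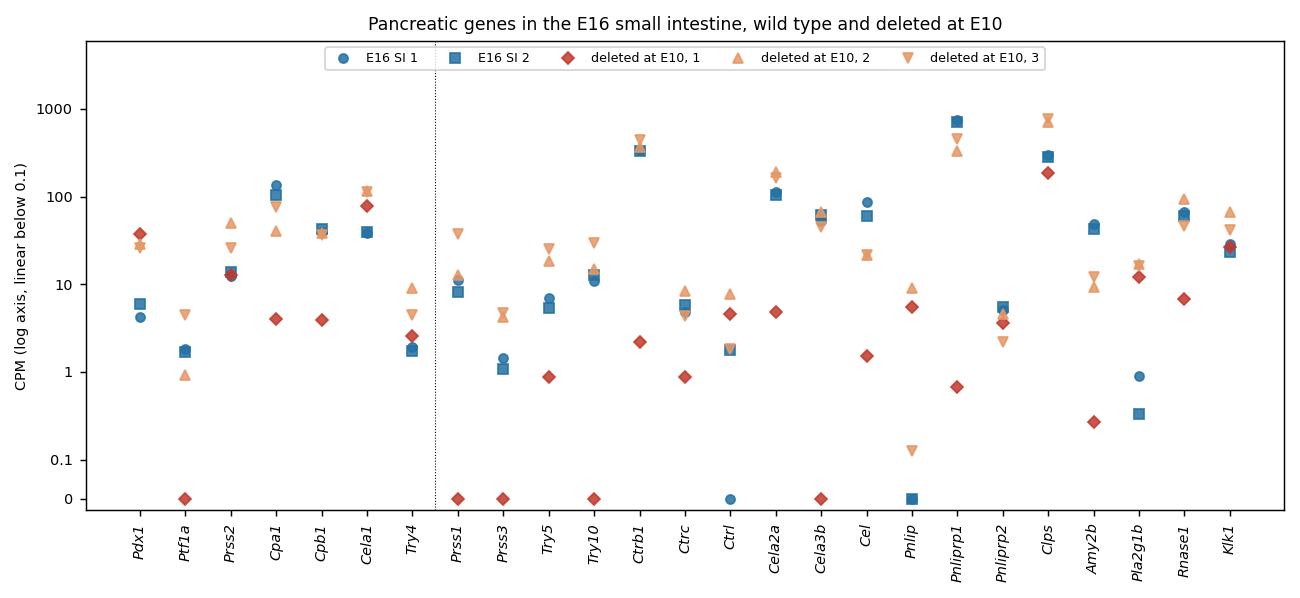
CPM (vertical, log axis, linear below 0.1) in the 2 wild-type (blue) and 3 E10-deletion libraries (red and orange) of E16 small intestine, for the 7 genes (left of the dotted line) and other named enzymes that were tested. The first deletion library (red) is below replicates 2 and 3 for enzymes such as Pnliprp1 (0.668 CPM) but not for Ctrl, Pnlip and Pnliprp2, while its Pdx1 level of 37.8 CPM is the highest of the 5.

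In the libraries labelled E13 deletion, Pdx1 measured 121 and 123 CPM, its highest level in the series (log2 difference from E16 wild type 4.57, SE 0.48, adjusted p = 2.4e-07). Among the 7 genes 3 were called, 1 higher and 2 lower, against 39.5% of all genes. Cpa1 measured 7.56 and 8.21 CPM against 135 and 105 (-3.93, SE 0.73, adjusted p = 0.000261) and Cpb1 6.9 and 5.22 against 39.0 and 42.8 (-2.75, SE 0.72, adjusted p = 0.00578). The Cpb1 call is lost without the second deletion library (adjusted p = 0.0537). Ptf1a had 6 and 5 counts against 36 and 31 (-2.87, SE 1.18, adjusted p = 0.051), which was called with DESeq2 (adjusted p = 0.0264) and with no filter on low counts (0.0484). Prss2 measured 5.83 and 7.18 CPM against 12.3 and 13.9 (adjusted p = 0.121). Cela1 (35.3 and 33.1 CPM, adjusted p = 0.587) and Try4 (4.3 and 2.81 CPM, adjusted p = 0.36) did not pass. Of the other enzymes 12 of 19 were lower, such as Pnliprp1 (732 to 8.59 CPM) and Amy2b (46.1 to 0.0223 CPM), and 3 were higher: Pnlip, Pla2g1b (0.617 to 257 CPM) and Pnliprp2 (5.27 to 479 CPM). Pnliprp2 was also present in adult wild-type ileum (166 and 564 CPM). Rbpjl was lower (6.66 to 0.213 CPM), and the accessory genes Reg1 (17.2 to 7050 CPM) and Zg16 (97.5 to 2255 CPM), which are also intestinal, were higher. The mesenchyme and muscle genes, at 1388 to 1511 CPM in the wild type and 70.0 to 73.8 here, were lower in 9 of 9, and the blood, immune and endothelial genes in 6 of 8 tested. These libraries also resembled E18 and adult intestine, as given above, where Cpa1, Cpb1 and Ptf1a were at 0 and Pdx1 at 13.3 CPM (E18 mean) or 0.148 CPM (adult wild-type mean). The part of that resemblance and of the other cell types in the differences was not tested.

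Compared directly, the E10- and E13-deletion libraries differed in 6 of the 7 genes, against 57.4% of all genes. Pdx1 was lower in the E10 deletion (mean 30.7 against 122 CPM, log2 difference -1.98, SE 0.37, adjusted p = 0.000105). Cela1 (1.58, SE 0.26, adjusted p = 2.7e-05), Prss2 (2.18, SE 0.52, adjusted p = 0.0014), Cpa1 (2.34, SE 0.67, adjusted p = 0.0056), Cpb1 (2.12, SE 0.67, adjusted p = 0.0132) and Ptf1a (2.81, SE 1.15, adjusted p = 0.0403) were higher. Cpa1, Cpb1 and Ptf1a overlapped between the groups through the first E10-deletion library, and without it their log2 differences were 2.89, 2.64 and 3.45. Fitting only these groups loses the Cpa1, Cpb1 and Ptf1a calls. The Cpb1 call is also lost without either E13-deletion library, and the Ptf1a call without either of these or without E10-deletion replicate 3 (0.87, adjusted p = 0.494). Try4 did not pass (0.58, SE 0.76, adjusted p = 0.521). Of the other enzymes 11 of 19 were higher in the E10 deletion and 2 lower, and without the first E10-deletion library 13 and 2. The list's median log2 difference was 2.85, against 0.00 over all genes. In the E10 against the E13 deletion, mesenchyme and muscle genes summed to 149 to 200 against 70.0 to 73.8 CPM (4 of 9 higher, 1 lower). Blood, immune and endothelial genes summed to 10.1 to 24.5 against 42.7 to 43.4 CPM (4 of 8 higher, 2 lower). The part of these lists in the differences was not tested.

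At E18, after deletion labelled as E15, 0 of the 7 genes were called by edgeR, where 17.5% of all genes were called, and 1, Pdx1, had an unadjusted p under 0.05. Pdx1 measured 26.3 and 24.8 CPM against 13.5 and 13.1 in E18 wild type, without overlap (log2 difference 0.94, SE 0.42, adjusted p = 0.101). With DESeq2 its adjusted p was 0.0294, at a log2 difference of 0.82 that is below the 2-fold minimum. Cela1 averaged 10.8 CPM, within the wild-type values of 10.2 and 14.5 (-0.20, SE 0.29, adjusted p = 0.682). The other 5 genes were at 1 count or fewer in all 4 libraries, so a difference was not detectable at this depth. Of the other enzymes 3 of 19 were higher: Pnliprp2 (7.79 to 103 CPM), Clps (12.1 to 51.4 CPM) and Klk1 (42.8 to 114 CPM). These 3 enzymes were also present in adult wild-type ileum, where the same 5 genes were at 0 counts. There Pnliprp2 measured 166 and 564 CPM, Clps 64.2 and 157 and Klk1 102 and 126. In the E18 libraries the blood, immune and endothelial genes went from 206 to 210 CPM to 9.98 to 11.7 and the mesenchyme and muscle genes from 33.9 to 34.8 CPM to 4.13 to 5.24. Most of these sums was 1 gene each, Ptprc (197 and 201 to 6.41 and 7.26 CPM) and Vim, vimentin (33.8 and 33.5 to 3.77 and 4.47 CPM), and 1 of 8 and 1 of 9 genes were called lower. Their part in the result was not tested.

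In adult ileum 2 of the 7 genes passed the filter, and both were called, against 20.4% of 12444 genes tested. Pdx1 had 2 and 3 counts in the controls and 63 and 110 after deletion, a ratio of 30.5 after scaling (exact 95% interval 12.8 to 95.1, covering counting error only), with an edgeR adjusted p of 0.0134. Cela1 measured 3.88 and 3.46 CPM in the controls and 15.2 and 9.77 after deletion (log2 difference 1.77, SE 0.29, adjusted p = 0.0137). Each call is lost without 2 of the 4 libraries in turn, with adjusted p of 0.0548 to 0.063. The 5 other genes were at 0 counts in all 4 adult libraries. Of 7 other enzymes tested, Ctrb1 was higher (0.0567 to 18.8 CPM) and Clps lower (111 to 31.2 CPM). The blood, immune and endothelial genes went from 21.6 to 48.6 CPM to 4.28 to 5.05, the mesenchyme and muscle genes from 5.0 to 5.95 CPM to 0.571 to 0.621 and the neural genes from 5.05 to 10.6 CPM to 224 to 329. In the controls most of each sum was 1 gene, Ptprc (20.9 and 47.2 CPM), Vim (4.63 and 5.39) and Ret (10.6 and 4.88). After deletion nearly all of the neural sum was Ret (224 and 329 CPM). The part of these lists in the result was not tested.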

How the data were processed

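The authors deposited 1 table of raw read counts per gene symbol, as whole numbers with no normalization, per the file headers and values. The submitters' processing notes name STAR 2.5.3a, HTSeq, Bowtie2, MACS2 and the build mm9 without roles; strand setting and annotation are not given in the sources used here. Libraries were 75 bp single-end, SMARTer-Seq v4 for embryos and TruSeq V2 for adults, per the labels. Each of 4 adult columns had 2 blank cells, which were closed up; over 1676 genes their Spearman rho with E18 was 0.28 to 0.295 as deposited and 0.929 to 0.962 after. Another 2 columns matched no sample and were not used. Chromatin samples (ATAC, ChIP) of the series were not analysed here. Protein identity of the trypsins was not computed.

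Counts were tested with edgeR 4.0.16 (R 4.3.3): TMM, filterByExpr at 10 counts, glmQLFTest, 27 embryonic libraries in 1 fit and 4 adult libraries in another, with the SE taken as the absolute log2 fold change over the root of F. CPM divides counts by the scaled library size. Depth ran from 5970227 to 62463167 counts (median 21910062). The scripts were tested on simulated counts. No pair of replicates agreed within sampling noise by a chi-square test. Same-numbered libraries deviated together at correlations of -0.0376 to 0.0973, so numbers were not taken as pairs. Named from each other list were up to 3 called genes per direction with the largest change and the 3 with the highest mean CPM; a few more genes were chosen after their values were seen. The 7 genes and the lists were chosen with earlier results of these data known. Alternatives were RLE scaling, DESeq2 1.42.0, no filter, a replicate block, only the groups compared (adult: all 31 libraries in 1 fit), each library left out, no fold minimum and, added after seeing the data, a fit without the groups labelled E12 hindstomach and E13 deletion. A gene of the enzyme list that entered the counts and medians is not reported here by name.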

Additional observations from a re-analysis of the deposited data

Results flagged for a closer look

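The difference from the same E16 wild-type libraries differed for 6 genes between the libraries labelled E10 and E13 deletion, by edgeR's direct test of the 2 groups. The log2 difference (E10 minus E13) was -1.98 for Pdx1, 2.81 for Ptf1a, 2.18 for Prss2, 2.34 for Cpa1, 2.12 for Cpb1 and 1.58 for Cela1. Fitting only these groups loses the Ptf1a, Cpa1 and Cpb1 calls, and leaving out 1 library loses Ptf1a (0.87 to 3.45) in 3 of 5 fits and Cpb1 in 2. Against the wild type, Cpa1 was called lower in both (-1.60, a call lost with DESeq2 and in 2 fits that left out 1 library, and -3.93) and Pdx1 higher in both (2.59 and 4.57), whereas Cela1 measured 1.39 and -0.19. The groups differ also in Cre driver and tamoxifen. Cdx2 was at 17.4, 14.5 and 27.5 CPM in the E10 deletion and at 213 and 217 in the libraries labelled E13 deletion, which correlated with E18 at a rho of 0.932 to 0.933 and with E16 at 0.839 to 0.841, and 57.4% of all genes were called between them.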

How the results depend on the processing

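Of 45 log2 fold changes of the 7 genes, 28 kept direction and call under every alternative run. Near 0, the Ptf1a difference after E10 deletion (-0.06) turned to 0.09 with RLE scaling and 0.14 with DESeq2, and ran from -1.99 to 0.58 with libraries left out; Try4 between the E10 and E13 deletions ran from -0.01 to 0.92 and Cela1 after E15 deletion from -0.43 to 0.09. With a replicate block the Prss2 call after E10 deletion (1.23, adjusted p = 0.0699) and the Ptf1a (0.75) and Cpb1 (1.53) calls between deletions were lost and Ptf1a after E13 deletion was called (-2.88, adjusted p = 0.0177); no other call of the 7 genes changed. With no fold minimum, more genes were called: 5239 for the E15 deletion, 4298 for the adult deletion, 5159 and 7029 for small intestine at E14 against E12 and E16 against E14, 5674 for hindstomach against forestomach at E16, 2549, 1940 and 6657 against small intestine at E12, E14 and E16, and 5380 and 6081 for hindstomach at E14 and E16 against the stage before. Fitting only the groups compared gave 214 calls for small intestine at E14 against E12, 122 for hindstomach against small intestine at E12, 2480 at E14, and 2233 against forestomach at E14; over all comparisons these fits lost 8 calls of the 7 genes (all 3 in the first of these comparisons, Prss2 and Cpa1 after E10 deletion, and Ptf1a, Cpa1 and Cpb1 between the deletions) and gained 1 (Ptf1a after E13 deletion), and the cause was not tested. Leaving out 1 library gave 1762 (without E14 replicate 2) to 4895 (without E12 replicate 2) calls for small intestine at E14 against E12, 1254 to 2055 for the adult deletion (lowest without either deletion library), 960 (without forestomach replicate 1) to 1127 for hindstomach against forestomach at E14, 1138 to 3899 (without small intestine replicate 2) against small intestine at E12, 670 to 853 at E14 (lowest without small intestine replicate 1 or either hindstomach library), and 2467 (without E14 replicate 1) to 3098 for hindstomach at E16 against E14. With all libraries these counts were 2795, 2544, 1459, 1599, 1178 and 3796. Of the 8 genes most like Pdx1 and most like the enzymes, 5 and 4 were shared with a Spearman ranking and 8 and 7 with one over group means. Depth limits E16 forestomach most, where 3 counts are 0.459 to 0.463 CPM.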
